A study of Homo sapiens with 4 samples.

Results

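The genes described here build the 3' ends of RNA polymerase II transcripts. They are the 40 listed symbols for factors of mRNA cleavage and polyadenylation, of transcription termination, and of the Integrator complex. They were chosen by name, with earlier results of these data known. All 40 had a row among the 28814 genes of the count table: 26 encode cleavage, polyadenylation and termination factors and 14 encode Integrator subunits. RNA-seq libraries came from 697 cells, an established human B-ALL (B-cell acute lymphoblastic leukaemia) line, exposed for 24 h either to 1 µM MZ1 (2 libraries) or to an equal volume of the solvent DMSO (2 libraries). MZ1 is a heterobifunctional degrader that brings BET bromodomain proteins to the VHL ubiquitin ligase. The design asks which transcripts differ between the treated and the solvent cells, at a single dose and a single time, in 1 cell line. Whether the replicates were independent cultures is not in the labels, so p-values here measure library-to-library spread that may be purely technical. In bulk RNA, a lower level per cell and fewer cells carrying a transcript cannot be told apart.

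Most human mRNAs are released from the polymerase by an endonuclease cut downstream of a poly(A) signal, followed by addition of a poly(A) tail. Several multi-subunit factors carry out the cut: CPSF reads the signal and cleaves, CstF binds the downstream GU-rich element, CFIm binds upstream UGUA elements and influences which poly(A) site is used, and CFIIm couples cleavage to the polymerase tail. The exonuclease XRN2 then degrades the RNA still attached to the polymerase, which promotes termination. Integrator is a separate complex with its own endonuclease and a bound PP2A phosphatase; it cleaves small nuclear RNAs and ends transcription early at many genes whose polymerase is paused near the start.

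With MZ1 the factors did not move as one block. In edgeR's quasi-likelihood test with Benjamini-Hochberg adjustment over 16862 tested genes, 14 of the 40 genes were called higher (adjusted p under 0.05), 22 were called lower and 4 were not called. That is 90.0% of the 40, where 84.2% of all tested genes were called (42.8% higher and 41.3% lower) and 87.3% of protein-coding ones (38.5% higher and 48.8% lower). The share called is therefore near the background. These background shares also apply to the counts per complex and module below, which rest on few genes each. Called changes of at least 2-fold numbered 3 rises (background 29.0%) and 9 falls (background 26.2%). The median log2 fold change (MZ1 over DMSO) was -0.44, against 0.05 for all tested genes, and the median size regardless of sign was 0.68 against 1.17. All 40 are protein-coding, as are 12639 of the tested genes. Medians and 2-fold shares for protein-coding genes alone were not computed, so these backgrounds are not matched to the 40. Levels are given as CPM, a gene's reads as a share of the library after TMM scaling. Added together, the 40 genes stood at 4198 and 4179 CPM in the DMSO libraries and at 4183 and 4129 CPM in the MZ1 libraries, so rises and falls nearly cancelled in the sum under this scaling. Under upper-quartile scaling, which moves all log2 fold changes up by a median of 0.271, the sum was higher by 0.26 on the log2 scale, 18 of the 40 were called higher and 19 lower.

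**Figure D1:**
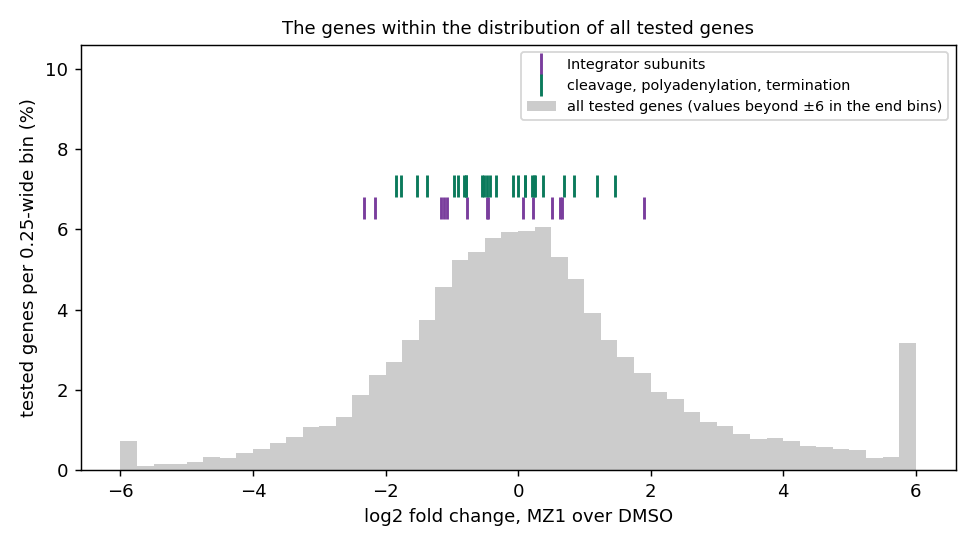
Distribution of log2 fold changes (MZ1 over DMSO, horizontal axis) of the 16862 tested genes, as the percent of genes per bin (grey bars, the end bins also holding more extreme values), with each of the 14 Integrator genes (purple ticks) and the 26 other genes (green ticks) marked above. The 40 genes lie between -2.32 and 1.90, inside the bulk of the distribution.

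**Figure D2:**
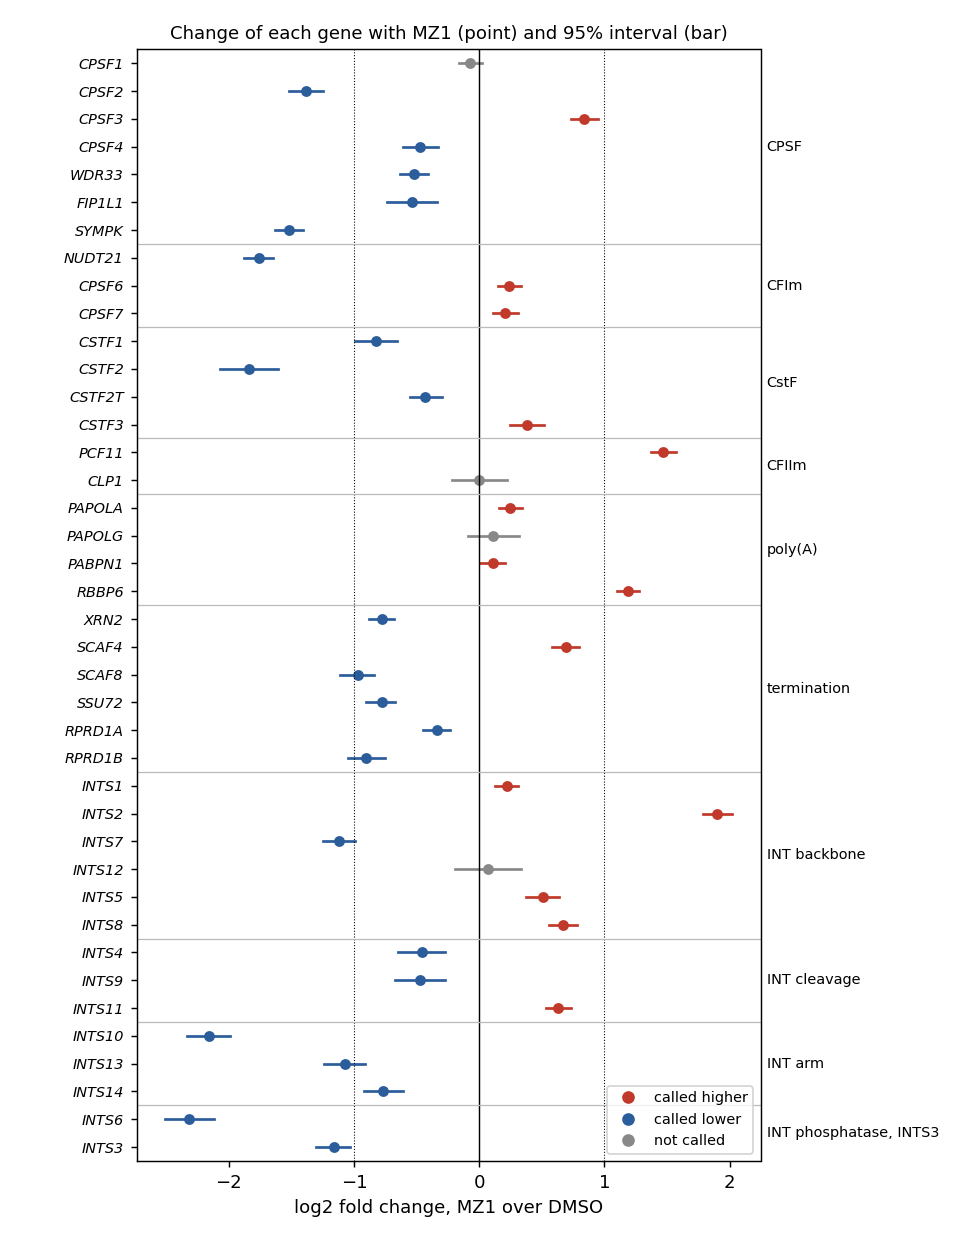
Log2 fold change (MZ1 over DMSO, horizontal axis) of each of the 40 genes (rows, grouped by role) with its 95% interval from the edgeR fit to 2 libraries per group. Red marks genes called higher, blue genes called lower and grey genes not called, and dotted lines mark 2-fold changes; INTS2 is farthest to the right at 1.90 and INTS6 farthest to the left at -2.32.

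The libraries held 14246367 to 16488005 counted reads. For the 40 genes the lowest mean DMSO level was 13.4 CPM (INTS12), so none was near the detection limit. For 39 of the 40 the MZ1 libraries lay on one side of both DMSO libraries (background 91.3%), and the exception was CLP1. All 5 precursor B cell markers examined (CD79A, CD79B, PAX5, VPREB1, IGLL1) were expressed and all 5 were called lower, their summed level going from 1917 and 1933 to 799 and 825 CPM. The 4 myeloid markers (LYZ, CD14, MPO, CSF1R) summed to 6.35 and 5.31 CPM with DMSO, MPO being at 0 there, and to 21.1 and 17.2 CPM with MZ1. They did not move together: LYZ, CD14 and MPO were called higher, and CSF1R, at 5.62 and 4.66 CPM with DMSO and 0.99 and 0.867 CPM with MZ1, was called lower. Of the erythroid markers, HBA1 was at 0 counts with DMSO, and HBA1 and ALAS2 summed to 0.122 and 0.472 CPM with DMSO and to 3.4 and 2.67 CPM with MZ1; T cell markers and HBB were not analysed here. Mitochondrially encoded genes took 5.82% and 5.48% of DMSO reads and 8.98% and 9.26% of MZ1 reads. The part of these shifts in the changes below was not tested.

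Promoter sequences were available for 34 of the 40 genes (RefSeq, GRCh38.p14, from 250 bases before to 50 bases after the annotated start), but not for CPSF1, INTS5, INTS8, INTS9, INTS10 and SCAF4. The 34 promoters had a median of 63.7% G and C (range 51.3% to 77.0%). The median was 68.0% for genes called higher and 63.7% for genes called lower. G and C content of other promoters was not computed, and the difference by direction was not tested. Upstream DNA of the gene with the largest rise (INTS2), of another riser (RBBP6) and of a pair of strongly lowered genes (CSTF2 and NUDT21) is shown first, from 150 to 51 bases before the RefSeq start, on the gene's strand. The RBBP6 and NUDT21 stretches lie inside the gene's GENCODE span, which begins further upstream than the RefSeq start. The same holds for the INTS6 window below. Capitals mark motif matches on either strand.
INTS2 (chr17:61928033-61928132, minus strand): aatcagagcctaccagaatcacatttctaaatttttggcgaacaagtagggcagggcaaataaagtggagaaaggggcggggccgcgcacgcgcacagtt
RBBP6 (chr16:24539416-24539515, plus strand): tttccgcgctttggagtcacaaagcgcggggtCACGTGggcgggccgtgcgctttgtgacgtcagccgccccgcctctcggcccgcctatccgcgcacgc
CSTF2 (chrX:100820241-100820340, plus strand): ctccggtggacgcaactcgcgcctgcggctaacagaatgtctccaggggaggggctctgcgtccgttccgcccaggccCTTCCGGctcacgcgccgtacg
NUDT21 (chr16:56451383-56451482, minus strand): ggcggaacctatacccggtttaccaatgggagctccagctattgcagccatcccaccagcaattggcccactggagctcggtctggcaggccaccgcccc

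The E-box CACGTG, the letters that MYC and related factors bind, was searched on both strands (it reads the same on each) and occurred in 3 of the 34 promoters, or 8.82%, where 7.43% of all 27305 promoters in the table and 9.95% of those of tested genes hold it. The 3 were those of INTS6, which fell, XRN2, which fell, and RBBP6, which rose, so the motif went with both directions. The 30-base windows around the INTS6 and XRN2 matches, which begin 80 and 28 bases before the start, show the E-box in capitals.
INTS6 (chr13:51453099-51453128, minus strand): gaggcggtgtatCACGTGgctcggggacgt
XRN2 (chr20:21303291-21303320, plus strand): ttctccagcgcgCACGTGggaggaagtgct
The string AAGATGGC, part of the YY1 motif, was found in 4 of the 34 promoters (11.8%; 3.03% of all promoters in the table, 5.34% of those of tested genes, 6.68% of those of tested genes called lower and 4.22% of those called higher). All 4 belonged to genes called lower, as did 20 of the 34 promoters, with 11 of genes called higher. Any difference by direction was not tested. The windows of these 4 are printed because the match lies close to the start in each. It begins 3 bases before the start in RPRD1A and 9, 10 and 29 bases into the transcript in RPRD1B, SYMPK and WDR33. Such closeness is not particular to this string, since CCGGAAG begins 2 bases before the start in CSTF1 and 4 bases into the transcript in CSTF2.
SYMPK (chr19:45863120-45863149, minus strand): gcgacgaacggAAGATGGCggcggcggcgg
WDR33 (chr2:127811125-127811154, minus strand): gcccataggggAAGATGGCggctgctcctt
RPRD1A (chr18:36067544-36067573, minus strand): gccggccggacGCCATCTTgctggtttgcg
RPRD1B (chr20:38033743-38033772, plus strand): gaggtcgggtgGCCATCTTgtggcggcggc
The ETS-type string CCGGAAG occurred in 10 of the 34 (29.4%, against 10.7% of all promoters and 18.9% of those of tested genes). It was in 5 of the 11 promoters of genes called higher and 5 of the 20 of genes called lower. Among tested genes it was in 19.0% of promoters of those called higher and 19.1% of those called lower. Whether its share among the 34 differs by direction was not tested. The palindromic NRF1 motif occurred in 1 of the 34, that of FIP1L1 (2.94%; 1.36% of all promoters and 2.36% of those of tested genes). Of the motifs searched, CCGGAAG and AAGATGGC can share the letters AAG where they adjoin. These matches describe the windows and say nothing of binding.

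In CPSF, the factor that recognises the poly(A) signal and makes the cut, 5 of 7 genes were lower, 1 was higher and 1 was not called (median -0.52). SYMPK, the scaffold that holds cleavage factors together (ENSG00000125755, chromosome 19, 45815410 to 45863290), was at 175 and 169 CPM with DMSO and at 61.9 and 58.0 CPM with MZ1. Both MZ1 libraries were far below both DMSO libraries, a 2.87-fold fall (log2 fold change -1.52 ± 0.05, SE; adjusted p = 9.81e-19). CPSF2, a catalytically inactive relative of the nuclease, was at 91.4 and 86.8 CPM with DMSO and 33.5 and 34.9 CPM with MZ1 (log2 fold change -1.38 ± 0.07; adjusted p = 4.69e-16). Its partner CPSF3, the endonuclease that cuts the pre-mRNA, went the other way, from 71.2 and 67.3 CPM to 124 in each MZ1 library (log2 fold change 0.84 ± 0.05; adjusted p = 1.66e-13). CPSF3 was the only riser of the 7.

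The genes for the subunits that contact the AAUAAA signal, WDR33 and CPSF4, fell by 0.52 and 0.47 on the log2 scale. FIP1L1, which helps recruit poly(A) polymerase, fell by 0.54, but 45.7% of its exonic length is shared with other annotated genes. One of these, LNX1, had 5 to 30 reads per library against 303 to 576 for FIP1L1. CPSF1, the large scaffold subunit, had the highest level of the 40 per kilobase of exonic length in both groups (60.3 RPKM with DMSO and 57.5 RPKM with MZ1). At 355 and 378 CPM with DMSO and 354 and 344 CPM with MZ1, it was not called (-0.07; 95% interval -0.16 to 0.02). Its direction depends on scaling: it was called higher with upper-quartile scaling (0.20) and lower with library totals alone (-0.15).

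CFIm is a complex of the UGUA-binding subunit NUDT21 with either CPSF6 or CPSF7, and its genes split. NUDT21 (ENSG00000167005, chromosome 16, 56429133 to 56452199) was at 269 and 253 CPM with DMSO and at 71.9 and 81.8 CPM with MZ1. The groups were far apart, a 3.39-fold fall (log2 fold change -1.76 ± 0.06; adjusted p = 1.05e-19). The NUDT21 stretch printed above, like that of INTS2, holds no searched motif, and the CCGGAAG match of NUDT21 begins 18 bases before the start, outside the stretch. CPSF6 stood at 280 and 268 CPM with DMSO and 326 and 322 CPM with MZ1, and CPSF7 at 182 and 176 CPM against 201 and 213 CPM. Both were called slightly higher, by 0.24 ± 0.04 and 0.21 ± 0.05 on the log2 scale (the CPSF7 call was lost without a count filter, adjusted p = 0.0546). Per kilobase of exonic length, NUDT21 went from the highest of the 3 (43.8 RPKM, against 33.9 for CPSF6 and 29.6 for CPSF7) to the lowest (12.9, 40.1 and 34.3 RPKM).

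In CstF, 3 of 4 genes were lower and 1 was higher (median -0.62). CSTF2 (ENSG00000101811, chromosome X, 100820359 to 100840932), whose protein binds the GU-rich element, was at 34.4 and 32.9 CPM with DMSO and 9.41 and 9.32 CPM with MZ1, a 3.59-fold fall (log2 fold change -1.84 ± 0.11; adjusted p = 7.73e-14). Its retrogene paralog on chromosome 10, CSTF2T, was at 85.8 and 84.7 CPM against 60.5 and 66.3 CPM (-0.43 ± 0.06). Both fell, CSTF2 more steeply. CSTF1 fell by 0.82, and CSTF3, the scaffold of CstF, rose by 0.38, from 47.0 and 48.3 to 61.5 and 62.9 CPM.

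CFIIm consists of PCF11 and CLP1, and only PCF11 was called. PCF11, which binds the polymerase tail and helps dismantle the elongation complex (ENSG00000165494, chromosome 11, 83156988 to 83187451), was at 102 and 108 CPM with DMSO and at 299.9 and 283 CPM with MZ1. This is a 2.78-fold rise (log2 fold change 1.47 ± 0.05; adjusted p = 2.73e-19). CLP1, an RNA kinase, was at 22.2 and 20.9 CPM with DMSO and 22.6 and 20.7 CPM with MZ1; its groups overlapped, with a 95% interval of -0.22 to 0.22 around a log2 fold change of 0.00. With upper-quartile scaling CLP1 was called higher (0.27).

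None of the 4 genes of tail synthesis and RBBP6 was called lower. RBBP6, a RING-finger protein that activates cleavage, was at 165 and 158 CPM with DMSO and 368 and 369.5 CPM with MZ1, a 2.28-fold rise (log2 fold change 1.19 ± 0.04; adjusted p = 2.06e-18). PAPOLA, the main nuclear poly(A) polymerase, was at 225 CPM in each DMSO library and 262 and 272 CPM with MZ1, and rose by 0.25 ± 0.04. Its paralog PAPOLG was at 23.7 and 22.3 CPM against 24.0 and 25.7 CPM and was not called (0.11; 95% interval -0.09 to 0.32), though it was with upper-quartile scaling (0.39) and with the stricter count filter (0.28). PABPN1, which coats the new tail, was called higher by 0.11 (adjusted p = 0.0452), a call lost in 7 of 12 alternative analyses.

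Of the termination and polymerase-tail factors, 5 of 6 were lower and 1 was higher (median -0.78), all by less than 2-fold. XRN2 was at 173 and 169 CPM with DMSO and at 99.0 and 100.1 CPM with MZ1 (log2 fold change -0.78 ± 0.05; adjusted p = 1.26e-13). SSU72, a phosphatase of the polymerase tail, was at 112 and 107 CPM against 63.3 and 63.7 CPM, also -0.78. The tail-binding proteins RPRD1A and RPRD1B fell by 0.34 and 0.90 (RPRD1A was at 102 and 99.1 CPM against 80.4 and 78.2 CPM, RPRD1B at 62.8 and 60.2 CPM against 34.2 and 31.9 CPM). The RPRD1A call was lost with upper-quartile scaling (-0.07, adjusted p = 0.219).

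SCAF4 and SCAF8 are paralogs that bind the polymerase tail and prevent use of early poly(A) sites, and they changed in opposite directions. SCAF4 was at 112 and 125 CPM with DMSO and 196 and 187 CPM with MZ1 (log2 fold change 0.69 ± 0.05; adjusted p = 7.85e-12). SCAF8 was at 76.7 and 75.4 CPM against 37.8 and 39.8 CPM (-0.97 ± 0.07; adjusted p = 6.23e-13). SCAF4 was higher than SCAF8 per kilobase in both conditions, by a factor of 1.45 with DMSO and 4.60 with MZ1. Exons of TIAM2 cover 13.0% of SCAF8, and TIAM2 had 48 to 101 reads per library against 534 to 1278 for SCAF8.

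**Figure D3:**
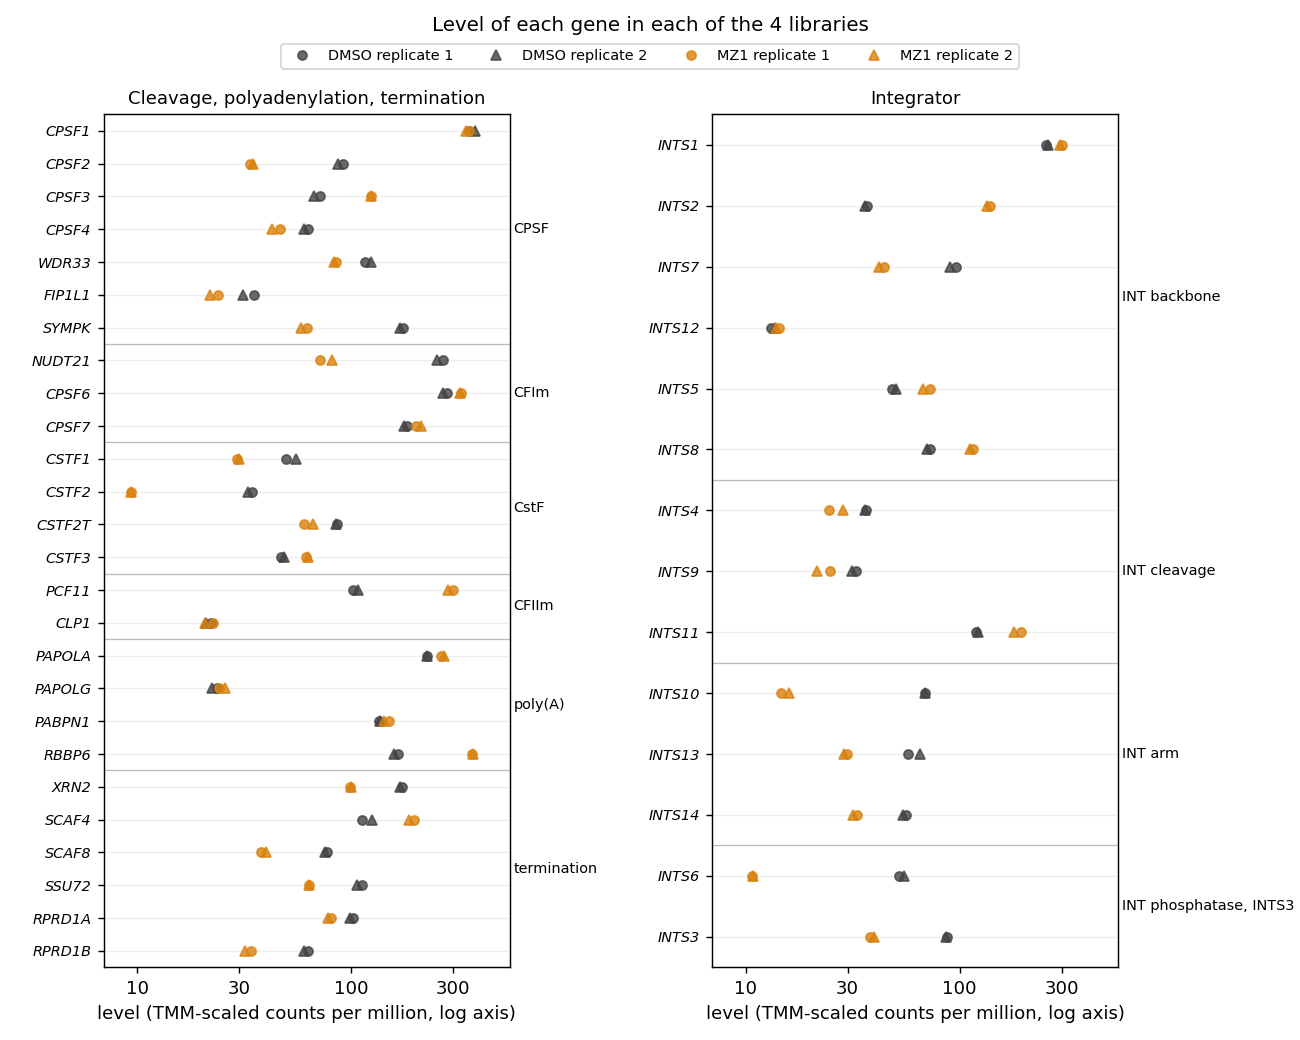
Level of each of the 40 genes (rows, grouped by role; left, cleavage, polyadenylation and termination; right, Integrator) in each library, in TMM-scaled CPM on a log axis. Dark grey marks are the 2 DMSO libraries and orange marks the 2 MZ1 libraries; NUDT21, CSTF2, INTS10 and INTS6 lie far to the left with MZ1 and PCF11, RBBP6 and INTS2 far to the right.

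Integrator had 8 of 14 genes lower, 5 higher and 1 not called (median -0.46), where 48.8% of protein-coding genes were lower and 38.5% higher. The direction differed between its modules, which hold too few genes to tell this from the background. In the backbone and shoulder, INTS2 (ENSG00000108506, chromosome 17, 61865367 to 61928016) was at 37.1 and 36.3 CPM with DMSO and at 139 and 135 CPM with MZ1. This 3.74-fold rise was the largest among the 40 (log2 fold change 1.90 ± 0.06; adjusted p = 3.36e-20). Other genes of the same part rose less: INTS8 by 0.67, INTS5 by 0.51 and INTS1, the largest scaffold subunit, by 0.22. INTS7 fell 2.17-fold, from 96.6 and 90.6 to 44.4 and 42.0 CPM (-1.12 ± 0.06; adjusted p = 1.64e-14). INTS12, at 13.1 and 13.7 CPM against 14.3 and 13.9 CPM, was not called (0.07; 95% interval -0.19 to 0.33). It was called higher with upper-quartile scaling (0.34).

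The cleavage module holds the endonuclease INTS11, its inactive partner INTS9 and the scaffold INTS4. INTS11 was at 119.8 and 122 CPM with DMSO and 194 and 180.0 CPM with MZ1 (0.63 ± 0.05; adjusted p = 1.23e-11). INTS9 was at 32.7 and 31.3 CPM against 24.8 and 21.5 CPM (-0.47 ± 0.10), and INTS4 fell by 0.46. Thus the nuclease gene rose and the genes of its 2 partners fell, although the falls of INTS9 and INTS4 were not called with upper-quartile scaling (-0.20 and -0.19, adjusted p = 0.0623 and 0.0628).

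The arm module had 3 of 3 genes lower, and INTS6 and INTS3 were lower too. INTS10 (ENSG00000104613, chromosome 8, 19817140 to 19852083) was at 68.9 and 68.6 CPM with DMSO and at 14.7 and 16.0 CPM with MZ1, a 4.48-fold fall (-2.16 ± 0.08; adjusted p = 4.71e-18). INTS13 went from 57.7 and 65.4 to 29.8 and 28.7 CPM (-1.07 ± 0.08) and INTS14, its direct partner, from 56.1 and 54.5 to 33.2 and 31.7 CPM (-0.77 ± 0.07). In sum, the arm genes dropped from 183 and 188 CPM to 77.8 and 76.3 CPM.

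INTS6, which joins the PP2A phosphatase to Integrator (ENSG00000102786, chromosome 13, 51354077 to 51454264), was at 52.3 and 54.9 CPM with DMSO and at 10.7 and 10.8 CPM with MZ1. At 4.98-fold this was the largest fall among the 40 (log2 fold change -2.32 ± 0.10; adjusted p = 2.53e-17). Its antisense neighbour INTS6-AS1, which shares 1.0% of the INTS6 exonic length, rose from 21 and 24 reads to 164 and 195 reads (3.24; adjusted p = 1.19e-12). INTS3, shared between Integrator and the SOSS complex of DNA repair, was at 87.7 and 86.4 CPM against 38.0 and 39.7 CPM, a 2.24-fold fall (-1.16 ± 0.06; adjusted p = 7.61e-15). SLC27A3, which overlaps 4.4% of its exons, fell from 102 and 117 reads to 5 and 4.

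Ratios of related genes within a library do not depend on how libraries are scaled, and 8 such ratios, 6 of them between paralogs, were compared. These 8 were chosen with earlier results of these data known. With 2 libraries per group the smallest two-sided p of an exact permutation test is 0.333, and the ratios are given as values with a standard error built from both fits. The log2 count ratio of CSTF2 to CSTF2T was -1.32 and -1.37 with DMSO and -2.68 and -2.83 with MZ1, a difference of -1.42 ± 0.13. For SCAF4 to SCAF8 it was 0.54 and 0.73 against 2.38 and 2.23 (difference 1.67 ± 0.08). Both differences are many times the gap between replicates.

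RPRD1A gained on RPRD1B more modestly, at 0.70 and 0.72 against 1.23 and 1.29 (0.55 ± 0.09). The CPSF6 to CPSF7 ratio, 0.62 and 0.61 against 0.70 and 0.60, overlapped between groups (0.03 ± 0.06). PAPOLA to PAPOLG differed by 0.13 ± 0.11, little more than its error. INTS6 and its X-linked paralog INTS6L fell by similar amounts: INTS6L was at 49.3 and 49.1 CPM with DMSO and 7.92 and 8.96 CPM with MZ1 (-2.54 ± 0.10), and the ratio differed by 0.23 ± 0.14.

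The nuclease genes of the mRNA and Integrator machineries, CPSF3 and INTS11, also kept closer to each other (log2 ratio -0.75 and -0.86 against -0.65 and -0.54, difference 0.21 ± 0.07) than to their inactive partners. Ratios of each nuclease to its partner were added after the values had been seen. CPSF3 to CPSF2 went from -0.36 and -0.37 to 1.89 and 1.83 (difference 2.22 ± 0.08), and INTS11 to INTS9 from 1.87 and 1.96 to 2.97 and 3.07 (1.10 ± 0.11). Between the partners themselves, CPSF2 to INTS9 went from 1.48 and 1.47 to 0.43 and 0.70 (-0.91 ± 0.12), so CPSF2 fell further than INTS9. In both machineries the ratio of nuclease to partner transcript was higher with MZ1 in both libraries, which restates the fold changes given above.

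**Figure D4:**
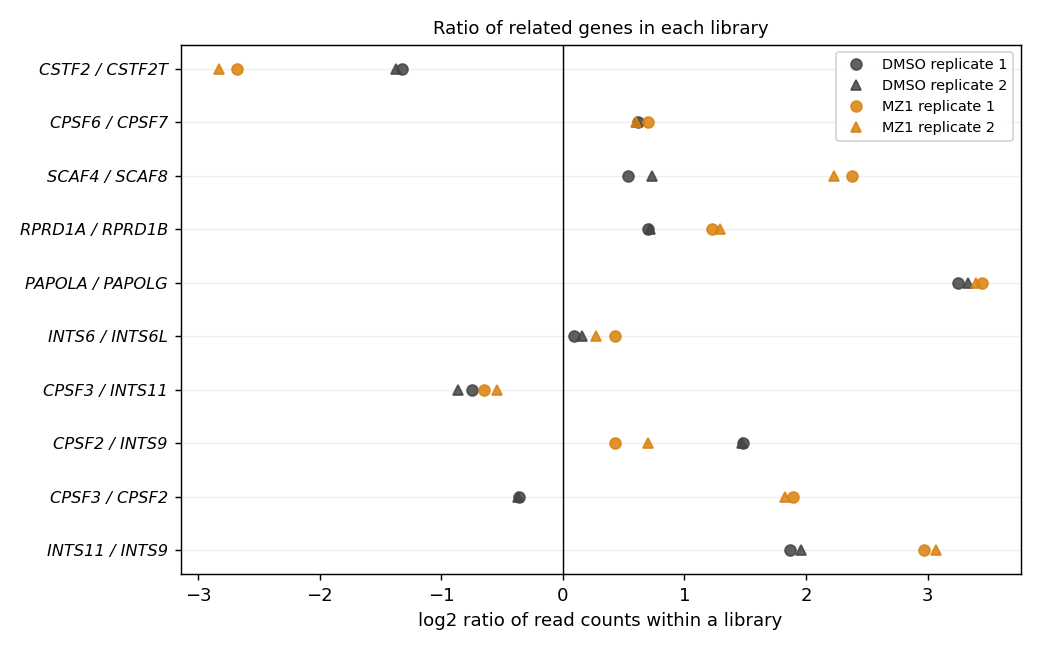
Log2 ratio of the read counts of 2 related genes (rows) within each library, grey for DMSO and orange for MZ1. CSTF2/CSTF2T shifts left and SCAF4/SCAF8, CPSF3/CPSF2 and INTS11/INTS9 shift right with MZ1, while CPSF6/CPSF7 overlaps between the groups.

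Among 49 further genes of the same pathways, 48 were tested and 20 were higher and 23 lower (median -0.06), a share of 89.6% called, again near the background. Of the 48, 37 kept their result in every alternative analysis that held them. Of 8 tested Integrator partners 2 were higher and 4 lower: NABP2 of the SOSS complex fell by 1.85 and INTS6L by 2.54, while INTS15, which binds the arm, rose by 0.73 and the SOSS subunit INIP by 0.56. The PP2A catalytic gene PPP2CA, named here outside the rule for listed genes, was at 119 and 113 CPM against 109.6 and 112 CPM and was not called (-0.07; 95% interval -0.17 to 0.04), although the scaffold gene PPP2R1A, likewise outside the rule, fell by 0.78. For PPP2CA the result held in 8 of 12 alternatives, with log2 fold changes from -0.15 to 0.20. NABP1, the gene left untested, had 2 reads in all.

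PNUTS-PP1 dephosphorylates the polymerase and SPT5 at the poly(A) site, and the Restrictor complex ends extragenic transcription; of their 7 genes 2 were higher and 4 lower. PPP1R10 (PNUTS) rose from 104 and 109 to 275 and 269 CPM (1.35 ± 0.05; adjusted p = 7.03e-19) and its partner TOX4 by 1.05. The PP1 catalytic genes PPP1CC and PPP1CA fell by 1.01 and 0.84. Outside the rule for listed genes, WDR82, found in both complexes, fell by 0.58 and the catalytic gene PPP1CB was not called (-0.03). The PPP1CB result held in 9 of 12 alternatives. Among 9 kinases and phosphatases of the polymerase tail, with their cofactors, 4 were higher and 4 lower. CTDSP2 and CTDP1 rose by 1.19 and 1.03, and CTDSP1 and RPRD2 fell by 1.49 and 0.81.

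Nuclear RNA decay, which removes short and read-through transcripts, had 4 of 10 genes higher and 6 lower. MTREX, the helicase that feeds the exosome, was at 120.0 and 117 CPM with DMSO and 29.7 and 27.2 CPM with MZ1 (-2.05 ± 0.06; adjusted p = 8.03e-20), NCBP3 fell by 1.03, and ZFC3H1 of the PAXT connection and ZC3H18 rose by 1.02 and 0.61. Tail-binding proteins and other tail enzymes had 5 of 6 higher and 1 lower: the non-canonical poly(A) polymerase TENT4A rose by 1.35 and ZC3H14 by 0.78 (27.7% of its exonic length is shared), and PABPC4 fell by 0.40. Of 8 termination partners 3 were higher and 4 lower. The XRN2-binding proteins CDKN2AIP and CDKN2AIPNL diverged, rising by 1.10 and falling by 0.91, RECQL5 rose by 0.85, and TTF2, an ATPase that strips polymerase from DNA, fell by 1.74.

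The 40 genes lie on 19 chromosomes, and gene size overlapped widely between those called higher and lower. Median gene span was 34996 bp for those called higher (range 4897 to 85184) and 49045 bp for those called lower (4105 to 122582), and median exonic length was 7974 and 5573 bp. The strand setting of the counting is unknown, so reads of overlapping genes cannot be told apart: apart from FIP1L1, the largest shared shares of exonic length were 25.6% for WDR33, 21.7% for INTS12, 20.7% for INTS8 (with CCNE2, at 19.0 to 23.0 CPM) and 18.9% for PCF11. For INTS12 the overlapping gene GSTCD, which covers 8.5% of its exonic length, had more reads than INTS12 itself. GSTCD had 287 to 404 reads per library against 192 to 232 for INTS12. ARHGEF38, which covers 13.2%, had 5 to 11 reads. BCL2L2-PABPN1, the read-through gene over PABPN1, had at most 6 reads in a library. The pseudogenes INTS4P1 and INTS4P2 had 2 to 40 reads per library against 346 to 610 for INTS4.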

How the data were processed

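Per the file headers, the authors deposited raw read counts per gene under Ensembl IDs, 1 column per library. The aligner HISAT2 2.2.0 and the build hg38 come from the submitters' processing notes, and TRIzol extraction and an Illumina TruSeq RNA kit per the labels' protocols; for the counting program, its annotation and its strandedness nothing is given in the sources used. The 4 columns were matched to samples by title. Symbols came from the gene name table, and positions and exonic lengths from GENCODE release 29 (GRCh38).

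The deposited counts went into edgeR 4.0.16 (R 4.3.3): filterByExpr by group (16862 genes), TMM scaling, glmQLFit and glmQLFTest with treatment as the only term, and Benjamini-Hochberg adjustment over all tested genes at 0.05. Standard errors came from the coefficient and the F statistic, 95% intervals from the fit's degrees of freedom. RPKM is CPM per kilobase of all annotated exonic bases of a gene, which understates genes with long rare exons such as INTS6. The fit was also run on simulated counts in which a small share of genes changed, up and down alike. Since 84.2% of tested genes were called here, that run does not test the scaling under such wide change. Replicates differed by more than sampling noise (chi-square over its degrees of freedom 2.43 with DMSO and 2.19 with MZ1; biological coefficient of variation 3.79%). The 12 alternatives comprised other scalings, count filters, DESeq2 1.42.0, limma-voom (limma 3.58.1), a replicate block and each library left out.

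The 40 genes, the pathway lists and the tests were chosen with earlier results of these data known. Library values were given for each of the 40 that changed at least 2-fold and for related pairs. Some of the 40 outside this rule, such as XRN2, SSU72 and CLP1, have them too, and the rest are given by fold change. From the pathway lists, up to 2 genes per direction and list were named by smallest adjusted p. Some of the cell type marker genes listed are not reported here.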

Additional observations from a re-analysis of the deposited data

How the results depend on the processing

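Of the 40 genes, 31 kept their call and direction in all 12 alternatives, and 20 of 480 comparisons changed, in CPSF1, CPSF7, CLP1, PAPOLG, PABPN1, RPRD1A, INTS12, INTS4 and INTS9. The number called ranged from 12 to 18 higher and 19 to 23 lower. CPSF1 reversed to 0.20 with upper-quartile scaling and to 0.10 with the stricter count filter (50 counts in at least 2 libraries). The median log2 fold change of the 40 was -0.41 with RLE scaling and with DESeq2, -0.17 with upper-quartile scaling, -0.52 with library totals alone and with no count filter, -0.27 with the stricter filter, and -0.49 to -0.35 with 1 library left out. The median of all tested genes turned to -0.03 with library totals alone and to 0 with the stricter filter. With the replicate block 13 of the 40 were called higher and 22 lower, with the median at -0.44, and PABPN1 lost its call (adjusted p = 0.0762). Same-numbered libraries deviated together hardly at all (correlation 0.014), so the numbers are not taken to pair them. The cause of these shifts was not tested. No spike-in was used here, so levels are relative to the other transcripts of a library. The widest standard error of the 40 was 0.13, for INTS12 (192 to 232 reads per library).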
